A study of Homo sapiens with 4 samples.

Results

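Clusters of H3K4bhb peaks are groups of neighbouring peaks in 1 peak list whose summits follow each other at no more than 10 kb. They were chosen by the positions of the summits alone: on chromosomes 1 to 22, every peak with another summit of the same list within 10 kb was taken, and such neighbours were chained. In the list from HK-2 cells given H2O2, 402 of 6251 peaks were clustered, forming 198 clusters. In the list from cells given BHBNa before H2O2 (H2O2_BHBNa), 1053 of 11510 peaks formed 503 clusters. Of peaks on chromosomes 1 to 22, these were 6.84% (95% Wilson interval 6.22 to 7.51%) of 5879 and 9.79% (9.24 to 10.4%) of 10760, intervals that cover counting error only.

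HK-2 is an established line of human renal tubular epithelium, H2O2 is an oxidant and BHBNa is the sodium salt of beta-hydroxybutyrate. The mark was mapped by ChIP-seq, in which chromatin is fixed, sheared, pulled down with an antibody and sequenced. Each of the 2 treatments had 1 immunoprecipitated (IP) library and 1 control library, which the labels call both IgG and input, and both treatments received H2O2, so no group here is untreated. With 1 library of each kind, every value below describes these libraries and no test between treatments was possible.

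Beta-hydroxybutyrate is the main circulating ketone body, made by the liver in fasting. In cells it can be activated to a coenzyme A ester, from which the beta-hydroxybutyryl group is passed to lysines of histones. H3K4bhb is this group on lysine 4 of histone H3, a residue better known for its methylation at promoters and enhancers.

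Sequences were read at the starts of genes that lie under a clustered peak. Windows of 300 bases, 250 before and 50 after each annotated start, were taken from RefSeq (GRCh38.p14), and 5 of them lay under a clustered peak: those of OR10A2 in the H2O2 list and of TECTA, LINC01614, LOC124902882 and LOC105372041 in the H2O2_BHBNa list. The 3 shown here are those of named genes, on the plus strand, with the bases under the peak in capitals. OR10A2 encodes an olfactory receptor (chromosome 11, 6862807 to 6863106), TECTA the alpha-tectorin of the inner ear (chromosome 11, 121100993 to 121101292), and LINC01614 a long noncoding RNA (chromosome 2, 215717793 to 215718092).
OR10A2: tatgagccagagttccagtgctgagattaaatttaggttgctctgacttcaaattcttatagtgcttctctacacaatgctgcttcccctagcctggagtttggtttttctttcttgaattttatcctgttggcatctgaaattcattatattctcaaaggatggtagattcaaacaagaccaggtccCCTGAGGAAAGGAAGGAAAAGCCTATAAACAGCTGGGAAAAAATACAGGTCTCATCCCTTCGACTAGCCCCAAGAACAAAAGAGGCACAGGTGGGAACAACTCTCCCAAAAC
TECTA: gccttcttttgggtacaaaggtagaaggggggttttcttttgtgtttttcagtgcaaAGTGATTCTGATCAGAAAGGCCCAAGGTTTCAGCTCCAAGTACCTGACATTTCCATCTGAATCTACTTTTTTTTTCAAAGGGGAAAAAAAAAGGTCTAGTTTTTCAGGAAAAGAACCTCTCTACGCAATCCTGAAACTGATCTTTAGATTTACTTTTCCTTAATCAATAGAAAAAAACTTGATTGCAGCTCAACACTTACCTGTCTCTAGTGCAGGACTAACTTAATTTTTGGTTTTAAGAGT
LINC01614: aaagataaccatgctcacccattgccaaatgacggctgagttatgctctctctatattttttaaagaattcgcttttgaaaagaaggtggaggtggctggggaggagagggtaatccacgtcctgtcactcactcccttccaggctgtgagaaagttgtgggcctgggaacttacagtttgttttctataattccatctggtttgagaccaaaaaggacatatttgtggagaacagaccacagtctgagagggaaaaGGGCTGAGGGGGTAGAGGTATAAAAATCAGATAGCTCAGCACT
All 5 windows were poor in CpG, the dinucleotide that marks most housekeeping promoters. They held 1 to 3 CpG and 36.7 to 46.3% G+C, beside medians of 14 CpG and 58.7% over 33725 windows, of which 24.6% held at most 3 CpG. The peaks over OR10A2, TECTA and LINC01614 had folds of 2.96, 2.61 and 2.69, on 3, 2 and 2 IP fragments, and covered 112, 243 and 43 bases of the windows. Fold here is the deposited enrichment of the summit over its background, with 1 added to the fragments of both before the ratio is taken. At few fragments it is therefore much smaller than the plain ratio. Fragments are the IP fragments at the summit as recovered from the fold and the p-value. These 3 peaks were therefore at or near the smallest the lists hold, which is 3 fragments for H2O2 and 2 for H2O2_BHBNa.

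Most clusters were pairs. Of the 198 clusters of the H2O2 list 192 were pairs and 6 held 3 summits. In the H2O2_BHBNa list 465 of 503 were pairs and 38 held at least 3 summits, 5 of them at least 4. Clusters were short, with a median span of 4.47 kb (quartiles 2.29 and 7.09) in the H2O2 list and 5.13 kb (2.85 and 7.98) in the H2O2_BHBNa list. At the limit of the rule, 16 gaps of 9 to 10 kb lay just inside and 27 of 10 to 11 kb just outside in the H2O2 list, and 46 and 40 in the H2O2_BHBNa list.

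The largest cluster was on chromosome 1, where the H2O2_BHBNa list held 8 summits over 27.7 kb (143237047 to 143264755), 638 kb from the nearest protein-coding gene, the histone gene H3-7. From left to right their folds were 2.72, 3.63, 8.54, 18.5, 4.52, 6.35, 5.32 and 5.42, on 2, 3, 9, 23, 4, 6, 5 and 5 fragments. The fourth summit had a q of 2.02e-31 and the third a q of 1.44e-09, and the first was the one member with a q over 0.05, at 0.326. The H2O2 list held 1 summit there, 0.042 kb from the fourth and 5.74-fold enriched on 11 fragments. Control background at the 8 summits was 1 to 2.92 times the lowest of the list. The cluster lay in the largest stretch of chromosome 1 without a coding gene, 22.4 Mb long.

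Of the clusters of 4 summits, 3 lay far from coding genes and stood on a high control background. That on chromosome 5 (49657733 to 49661469), 735 kb from EMB, had folds of 4.12, 4.42, 4.1 and 2.96 on 12, 27, 12 and 19 fragments, with a background 21.1 to 56.3 times the lowest. A cluster on chromosome 17 (26881366 to 26885462), 409 kb from WSB1, had folds of 4.97, 4.17, 4.25 and 5.06 and a background 3.76 to 25.7 times the lowest. On chromosome 4 (49635550 to 49651441), 573 kb from CWH43, the folds were 4.22, 3.13, 4.08 and 4.23 and the background 2.71 to 11.1 times the lowest. The fifth cluster of at least 4 summits differed: on chromosome 1 (115942820 to 115949092), in the noncoding gene LOC101928977, all 4 summits rested on 2 fragments, with folds of 2.68, 2.55, 2.67 and 2.61 and a q of 0.326.

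Among the 6 triples of the H2O2 list, 1 touched a coding gene. ENSA, which encodes an inhibitor of the phosphatase PP2A, held the middle summit of a cluster on chromosome 1 (150619514 to 150631940) with folds of 2.98, 3.72 and 3.06. A triple on chromosome 8 (43237793 to 43241784), 34.9 kb from HGSNAT, had 22, 8 and 10 fragments over a background 5.52 to 19.4 times the lowest. The triples nearest to STIM2 on chromosome 4 and FSCB on chromosome 14 had folds of 2.84 to 3.96 and q of 0.187 to 0.532.

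At 3 places there was a cluster in both lists. On chromosome 20, a triple of the H2O2 list (28494913 to 28497797) and a triple of the H2O2_BHBNa list (28495459 to 28497966) overlapped, 2316 kb from the nearest coding gene, LOC124904970. Folds there were 4.13, 4.99 and 5.44 in the H2O2 list and 14.8, 2.72 and 5.22 in the H2O2_BHBNa list, whose highest member had a q of 1.6e-23. Control background reached 4.39 times the lowest at the 4.99-fold H2O2 summit and 5.43 times at the 14.8-fold H2O2_BHBNa summit. The place lay in the largest stretch of chromosome 20 without a coding gene. In IMMP2L, which encodes a peptidase of the mitochondrial inner membrane, pairs with folds of 2.87 and 3.55 (H2O2) and 3.42 and 2.54 (H2O2_BHBNa) interleaved, and the lowest q of the 4 members was 0.118. Between 217 and 229 kb from CHD1, a chromatin remodeller gene on chromosome 5, the pairs had folds of 4.21 and 2.91 and of 4.44 and 2.7.

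**Figure D1:**
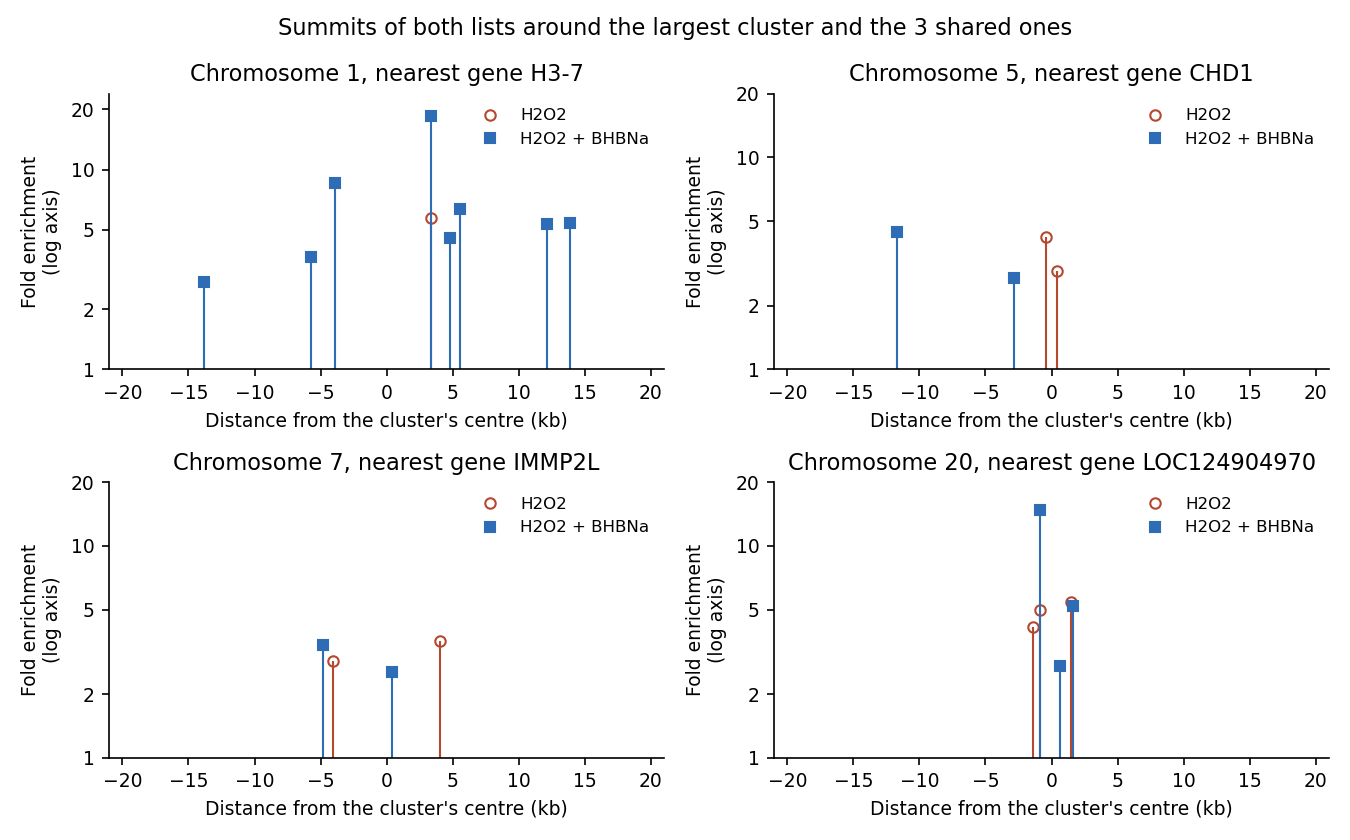
Fold enrichment (vertical, log axis) of every summit against its distance in kb from the centre of the cluster (horizontal), for the largest cluster and the 3 places with a cluster in both lists. Open circles are the H2O2 list and filled squares the H2O2_BHBNa list; on chromosome 1 the 8 summits of the H2O2_BHBNa list surround 1 summit of the H2O2 list, and on chromosome 20 the highest summits are 14.8 and 5.44.

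These 3 were 1.52% of the H2O2 clusters and 0.596% of the H2O2_BHBNa clusters. With the H2O2_BHBNa list moved by 40 fixed distances of up to 2 Mb, a mean of 1.43 (0 to 4) H2O2 clusters were near a cluster of it. A single summit of the other list was within 10 kb of 26 H2O2 clusters, beside a mean of 20.3 (13 to 30) when moved. It was within 10 kb of 47 H2O2_BHBNa clusters, beside 29.7 (19 to 41), so that count lay above every one of the 40 moved counts.

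The number of clusters was set beside positions shifted within their own neighbourhood: every summit was moved by its own distance of 50 to 500 kb, in 200 sets, which keeps the density over about 1 Mb and breaks the spacing under 10 kb. In the H2O2 list 402 clustered peaks stood beside a shifted mean of 352 (lowest to highest 298 to 416), a ratio of 1.14. In the H2O2_BHBNa list 1053 stood beside 923 (826 to 1050), also a ratio of 1.14. The H2O2 count thus lay inside the shifted range, and the H2O2_BHBNa count 3 peaks above its top, a position it lost in 8 of 13 alternative settings. The range widens with the number of sets: with 40 sets the highest counts were 398 and 1026. Numbers of clusters, 198 and 503, lay inside the ranges of 146 to 205 and 400 to 512.

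**Figure D2:**
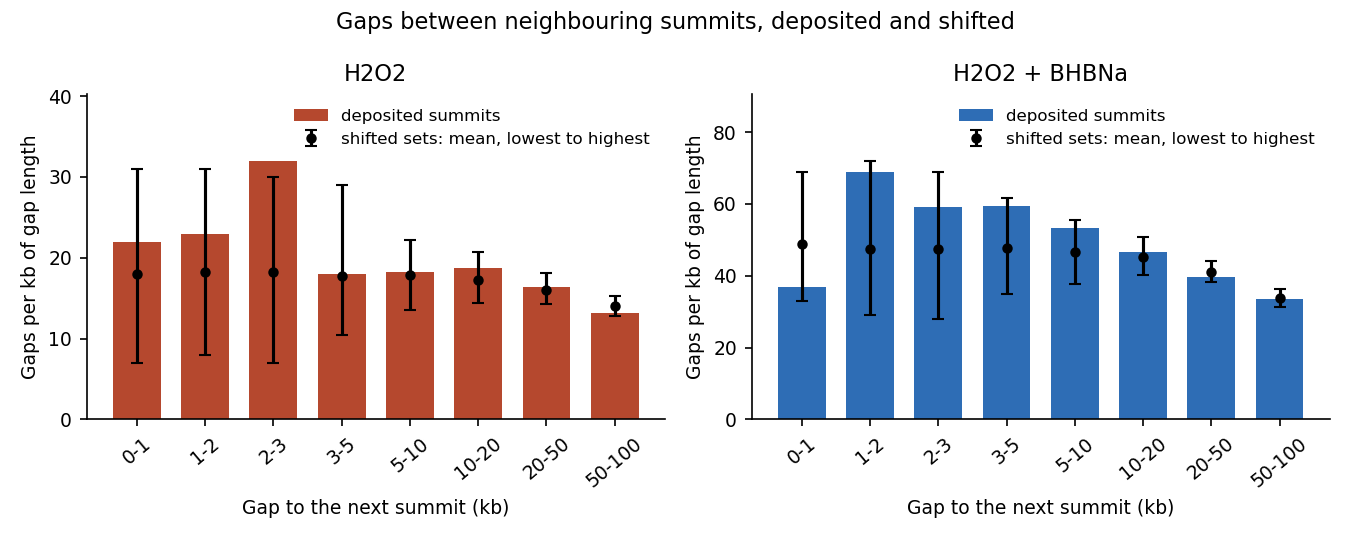
Number of gaps between neighbouring summits per kb of gap length (vertical) in bins of gap length in kb (horizontal), for the deposited summits (bars) and 200 shifted sets (points: mean; lines: lowest to highest). Of the 8 bins, the bar passes the range only at 2 to 3 kb in the H2O2 list, with 32 gaps beside 7 to 30.

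Gap lengths were set beside the same shifted positions in each list, and the lists were not compared with each other. In the H2O2 list 32 gaps of 2 to 3 kb stood beside a mean of 18.2 (7 to 30), while gaps of 3 to 5 kb (36 beside 35.4) and 5 to 10 kb (91 beside 89.4) were close to it. In the H2O2_BHBNa list gaps of 1 to 2 kb numbered 69 beside 47.5 (29 to 72), gaps of 2 to 3 kb 59 beside 47.5 (28 to 69), gaps of 3 to 5 kb 119 beside 95.5 (70 to 123) and gaps of 5 to 10 kb 266 beside 233 (188 to 278), all inside their ranges. Gaps under 1 kb were fewer than the mean there, 37 beside 48.9 (33 to 69), but not in the H2O2 list, 22 beside 18 (7 to 31). Called peaks cannot lie arbitrarily close, and the smallest gaps were 0.518 kb in the H2O2 list and 0.385 kb in the H2O2_BHBNa list, a limit that shifted summits do not have. Its part in the counts under 1 kb was not tested.

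Clusters of at least 3 summits in the H2O2_BHBNa list were the one size class outside its range: 38 beside a mean of 21 (8 to 37). Pairs, 465 beside 429 (372 to 490), lay inside it, as did the 5 clusters of at least 4 summits, beside 1.18 (0 to 6). In the H2O2 list the 6 triples stood beside a shifted mean of 5.99 (1 to 15). The count of 38 came inside its range in 5 of 13 alternative settings. Without peaks in the largest gene-free stretch of each chromosome there were 33, beside 20.5 (7 to 35). Without peaks over 5 times the lowest background there were 32, beside 20.5 (9 to 40). Shifts of 20 to 100 kb gave 15 to 39, and chaining at 5 kb and at 20 kb gave 11 beside 0 to 12 and 94 beside 49 to 108. Of peaks with at least 3 fragments alone, 12 such clusters formed, above the shifted 2.81 (0 to 8).

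**Figure D3:**
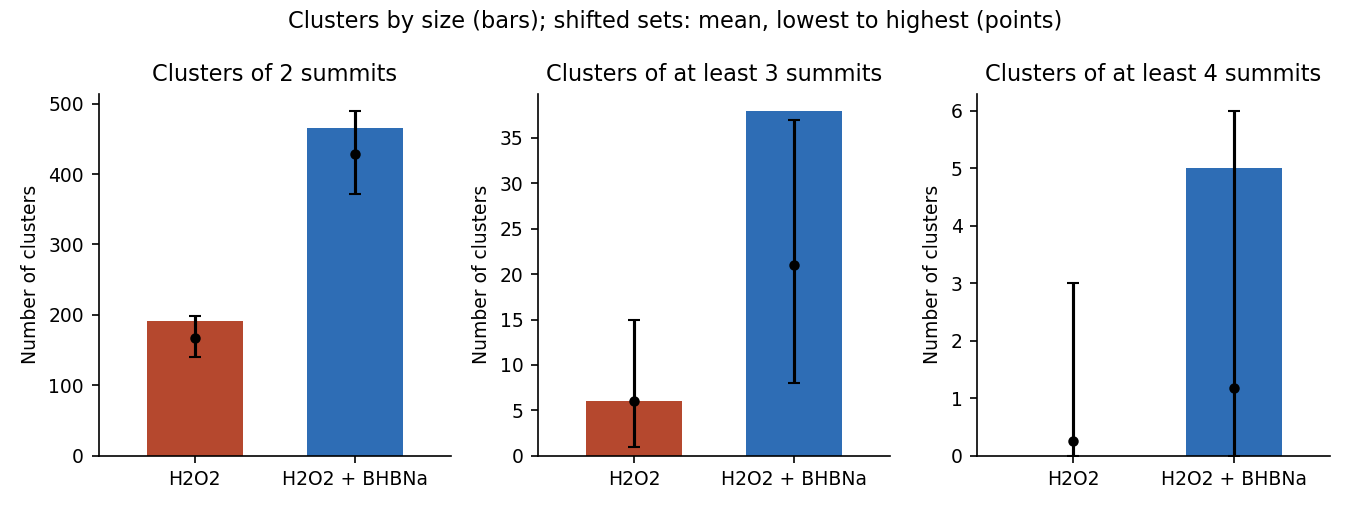
Number of clusters (vertical, from 0) of 2, at least 3 and at least 4 summits in each list (bars), with the mean and the lowest to highest of 200 shifted sets (points and lines). The bar of 38 for at least 3 summits in the H2O2_BHBNa list is the one above its range, 8 to 37.

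By chromosome, the number of clusters left the shifted range once in each list. Chromosome 1 held 54 clusters of the H2O2_BHBNa list beside a mean of 34.9 (22 to 50), and 14% of its 860 peaks were clustered. In the H2O2 list chromosome 22 held 3 clusters on 26 peaks, beside 0.38 (0 to 2). Among these 3, the pair at 11212399 to 11214633 lay in the largest gene-free stretch, on a background of up to 11.1 times the lowest. The count without that pair was not set beside shifted positions. No cluster of the H2O2 list lay on chromosomes 16, 17 or 19, where the shifted means were 1.82, 1.17 and 0.155. Chromosome 4 had the most clusters of the H2O2 list, 22 beside a mean of 21.7, but 23 beside 33.3 (17 to 47) in the H2O2_BHBNa list.

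**Figure D4:**
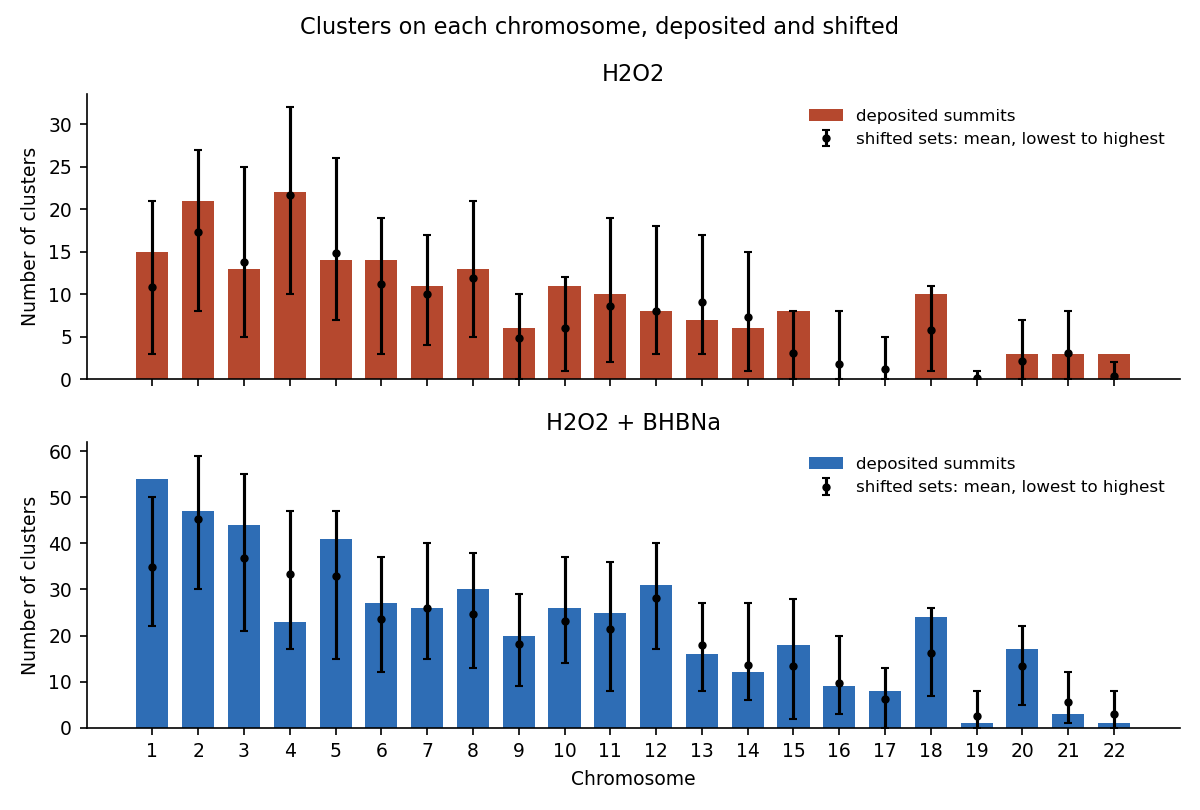
Number of clusters (vertical) on each of chromosomes 1 to 22 (horizontal) in the deposited lists (bars) and in 200 shifted sets (points: mean; lines: lowest to highest). Chromosome 22 in the H2O2 list, with 3 clusters, and chromosome 1 in the H2O2_BHBNa list, with 54, lie above their ranges.

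Most clusters lay outside coding genes. A summit in a coding gene or within 1 kb of one was found in 66 H2O2 clusters (33.3%) and 206 H2O2_BHBNa clusters (41%). Clusters outside genes were a median of 304 kb and 137 kb from the nearest one, and 42 and 82 of them lay in a long noncoding RNA gene. The share in noncoding genes was not counted for isolated peaks or shifted positions, so the 42 and 82 are not read as a result. Of clustered peaks 32.1% (27.7 to 36.8%) and 39.1% (36.2 to 42.1%) were in or near a coding gene, beside 38.9% (37.6 to 40.2%) and 43.5% (42.5 to 44.5%) of isolated peaks. In clusters of at least 3 summits the shares were 5.56% (1 of 18 peaks) and 26.8% (33 of 123).

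Genes that hold 2 summits of a cluster numbered 65 in the H2O2 list and 188 in the H2O2_BHBNa list, which is 0.34% and 0.983% of 19126 coding genes. Shifted positions gave means of 56.1 (40 to 81) and 184 (147 to 230), so both counts lay inside the range. They were long genes, with medians of 284 kb and 211 kb beside 24.5 kb over all coding genes. Of the genes of at least 200 kb, 2.76% held a cluster in the H2O2 list and 7.39% in the H2O2_BHBNa list.

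In the H2O2_BHBNa list 11 clusters of at least 3 summits lay in a gene. DIP2C on chromosome 10 had the highest member, with folds of 3.63, 6.71 and 2.67 on 3, 9 and 2 fragments and a lowest q of 1.9e-05. A summit of the H2O2 list, with a fold of 2.95, lay 0.268 kb from one of them. GRIP1, a scaffold of glutamate receptors, had folds of 4.07, 5.06 and 2.56, and KAZN, which encodes the junction protein kazrin, 4.86, 2.71 and 3.63. PTGIS, the prostacyclin synthase gene, held 3 even summits with folds of 3.48, 3.6 and 3.63, each on 3 fragments. A triple with folds of 3.63, 2.69 and 2.64 lay in both PROCR, the endothelial protein C receptor gene, and the read-through gene MMP24-AS1-EDEM2.
MAP4K4, a stress-activated kinase gene, had folds of 3.46, 3.45 and 2.64, and CTNNA2, a neuronal catenin gene, 3.3, 2.62 and 2.56. The triples in KLF17, IL31RA and ELAPOR2 had 2 fragments at every summit, folds of 2.55 to 2.72 and a q of 0.326.

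Genes with more than 1 cluster were few, 1 in the H2O2 list and 7 in the H2O2_BHBNa list. In the H2O2_BHBNa list DCC, the netrin receptor gene, held pairs of 4.3 and 2.71 and of 2.68 and 4.7 among 12 summits over 1196 kb. MACROD2, which encodes an ADP-ribose hydrolase, held pairs of 3.3 and 4.77 and of 2.99 and 4.2, and ERBB4, a receptor tyrosine kinase gene, pairs of 2.61 and 3.52 and of 3.85 and 4.42. MAGI1, SEMA6D and CPQ also held 2 pairs, with folds between 2.56 and 3.52.

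A cluster in both lists was found in 7 genes, 10.8% of those of the H2O2 list and 3.72% of those of the H2O2_BHBNa list: ABCA13, AGBL1, COBL, COL25A1, DLGAP1, IMMP2L and RAB38. They span 301 to 959 kb, and among all genes of at least 200 kb a cluster was held by 7.39% in the H2O2_BHBNa list and 2.76% in the H2O2 list, so these shares are not read as a result. Apart from IMMP2L the 2 clusters did not lie within 10 kb of each other. In COBL, an actin nucleator gene, the pairs had folds of 3.2 and 4.51 (H2O2) and of 2.66 and 5.19 (H2O2_BHBNa), the last with a q of 0.000899. COL25A1, a transmembrane collagen gene, had 3.43 and 2.87, and 4.43 and 3.19. ABCA13, AGBL1, DLGAP1 and RAB38 had folds of 2.56 to 4.31. Apart from COBL and IMMP2L, these genes were named after their values were seen.

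Clusters near a coding start, also named after their values were seen, numbered 3 in the H2O2 list and 6 in the H2O2_BHBNa list, with a summit within 1 kb of one and chromosome 8 not included. Of clustered peaks 0.746% and 0.665% lay that close to a start, beside 0.219% and 0.556% of isolated peaks. The strongest was at OR10J5, an olfactory receptor gene, where the fold was 5.22 (q of 0.000719). ACVR1, TNRC6C, TECTA and FOXM1 had summits of 2 fragments, and the H2O2 clusters were at OR10A2, COL10A1 and the overlapping TRIM62 and ZNF362. Both members had a q of at most 0.05 in pairs of the H2O2_BHBNa list in 5 genes: RBPJL (5.44 and 4.27), TFPI (4.26 and 3.63), FOXP1 and SGCZ (3.63 at both summits) and SEC24A (3.63 and 3.6). In this list a fold of 3.63 is that of 3 fragments on the lowest background, with a q of 0.0484, just under the limit.

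The gene lists were described by the number of members with 2 summits of a cluster. Of 22 long genes of common fragile sites 6 held one in the H2O2 list (among them CNTNAP2, IMMP2L and PTPRD) and 5 in the H2O2_BHBNa list (among them DLG2, IMMP2L and MACROD2). These 27.3% and 22.7% stand beside the 2.76% and 7.39% of all genes of at least 200 kb, but the median length of the list was 1375 kb, and the part of length was not tested. Of 37 neuronal adhesion genes, 4 and 6 held a cluster, among them NEGR1 (folds of 4 and 3.77) and OPCML (3.14 and 3.87) in the H2O2 list and TENM3 (2.72 and 3.63) in the H2O2_BHBNa list. CNTNAP2 and PTPRD are in both of these lists. Of 46 neuronal channel and receptor genes 2 and 4 held one, with KCND2, a potassium channel gene, at 3.72 and 3.57, and of 34 cadherin genes 2 (FAT3 and PCDH15) and 1 (CDH18). The shares were 10.8% and 16.2% (adhesion), 4.35% and 8.7% (channel and receptor) and 5.88% and 2.94% (cadherin). Over all coding genes they were 0.34% and 0.983%. Of these lists 36, 40 and 13 genes were at least 200 kb long. The counts are small and are not read as a result.

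The lists closer to the kidney and to ketone bodies were read beside the 0.34% (H2O2) and 0.983% (H2O2_BHBNa) of all coding genes with a cluster, and their counts are too small to set them apart from it. None of 38 proximal tubule identity and transport genes had a cluster in either list, where 5 and 9 of them had a summit. Of 71 mitochondrial energy and ketone body genes 1 had a cluster, in the H2O2 list: ACSS3, a mitochondrial acyl-CoA synthetase gene, with folds of 3.52 and 3.43. Of 42 genes listed for lysine acylation and deacylation none had one in the H2O2 list and 2 in the H2O2_BHBNa list. These were HDAC9, a histone deacetylase gene, with folds of 2.55 and 5.11 (q of 0.0015 for the second), and ASH1L, with 2.65 and 3.4. ASH1L encodes a histone methyltransferase, so of these 2 only HDAC9 is a deacylation gene. The median lengths of these 3 lists were 38.2, 37.7 and 44.4 kb.

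Families whose genes lie side by side in the genome were also counted. None of 391 olfactory receptor genes, 149 keratin and keratin-associated genes, 81 histone genes or 53 clustered protocadherin genes held 2 summits of 1 cluster in either list. The shares of all coding genes were 0.34% and 0.983%. The median lengths of these families were, in that order, 2.97, 1.15, 0.5 and 110 kb, and the part of length was not tested. Of 546 zinc finger genes 3 (0.549%) held one in each list: ZNF362, ZNF474 and ZNF804A in the H2O2 list and ZNF385D, ZNF438 and ZNF573 in the H2O2_BHBNa list. ZNF804A had folds of 2.81 and 4.49.

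Clustered peaks were compared with isolated peaks of the same list, as a description, since fold, q and background come from the same contrast as the positions. Median folds were 3.54 and 3.51 in the H2O2 list, and 2.72 in both classes of the H2O2_BHBNa list. Over all peaks on chromosomes 1 to 22, 7.08% (H2O2) and 15.1% (H2O2_BHBNa) had a q of at most 0.05. Of the H2O2 peaks it was reached by 9.2% (6.75 to 12.4%) of clustered and 6.92% (6.28 to 7.62%) of isolated ones. For H2O2_BHBNa the shares were 16.1% (14 to 18.5%) and 15% (14.3 to 15.7%). In clusters of at least 3 summits it was 38.9% (7 of 18, 20.3 to 61.4%) and 30.9% (38 of 123, 23.4 to 39.5%). None of the 7 H2O2 peaks lay in the triples at ENSA or nearest to STIM2 and FSCB. All but 1 member of the largest H2O2_BHBNa cluster were among the 38.

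**Figure D5:**
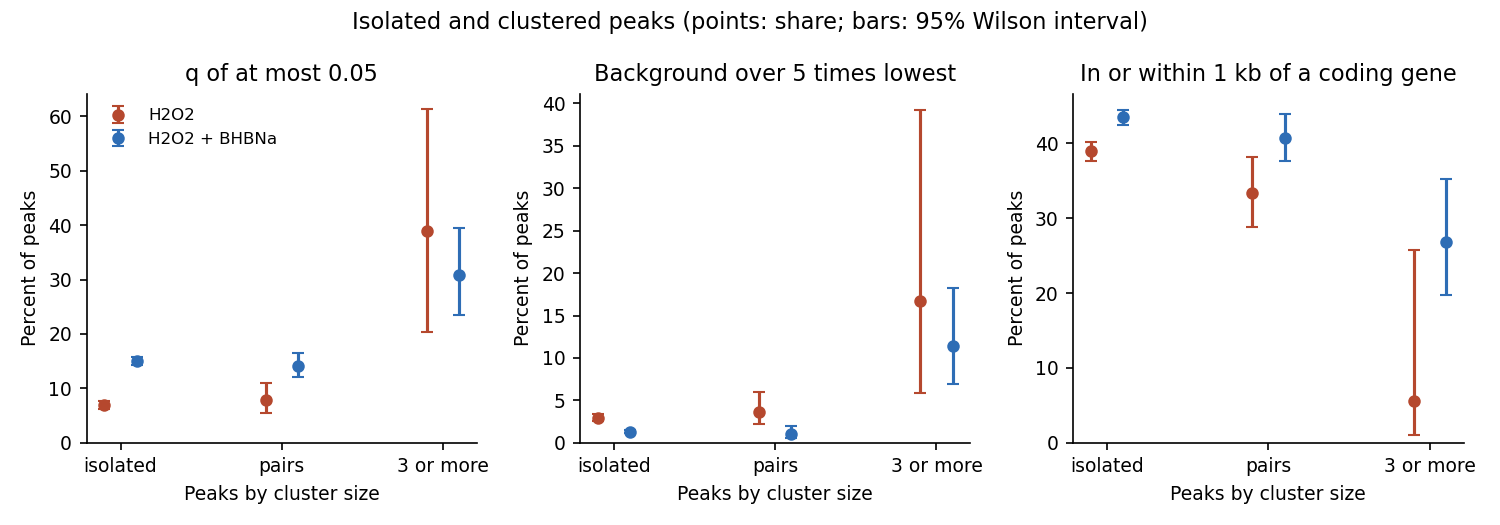
Share of peaks in percent (vertical) with a q of at most 0.05, with a control background over 5 times the lowest of the list, and in or within 1 kb of a coding gene, for isolated peaks, pairs and clusters of 3 or more (horizontal); points are shares and bars 95% Wilson intervals. Pairs lie close to isolated peaks in the left and middle panels, while clusters of 3 or more reach 38.9 and 30.9% at q, and 16.7 and 11.4% over the background limit.

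Shares were also counted for the larger clusters, whose peaks are not separate members: a cluster adds all of its summits, and the intervals cover counting error only. A control background over 5 times the lowest was found at 16.7% (5.84 to 39.2%) and 11.4% (6.9 to 18.2%) of peaks in clusters of at least 3 summits, and at 2.96% and 1.31% of isolated peaks. In the H2O2 list these were the 3 summits of 1 cluster, that near HGSNAT, and in the H2O2_BHBNa list summits of 6 clusters. The largest gene-free stretch of the chromosome held 16.7% and 17.9% of the former and 1.13% and 1.18% of the latter, with 1 H2O2 cluster, the triple on chromosome 20, and 5 H2O2_BHBNa clusters behind the first shares. The largest cluster, on chromosome 1, was among these 5. The share at a q of at most 0.05 in clustered minus isolated peaks was 2.28 percentage points in the H2O2 list and 1.18 in the H2O2_BHBNa list. Without peaks over 5 times the lowest background it was 0.725 and 0.087, and without the largest gene-free stretches 1.36 and -0.244. The interval of each of these 6 differences held 0. These intervals count every peak as separate, although clustered peaks come in groups, so they may be too narrow and are not a test. The difference for H2O2 peaks chained at 5 kb was 3.88 (0.375 to 8.69). For H2O2_BHBNa with as many peaks as the shorter list holds it was 6.5 (1.31 to 12.1). Clusters of the smallest peaks only were 13 of 198 in the H2O2 list (3 fragments) and 157 of 503 in the H2O2_BHBNa list (2 fragments). Such peaks were 20.9% of clustered and 21.1% of isolated H2O2 peaks. In the H2O2_BHBNa list they were 52.8% and 51.7%, so these counts are not read as a trait of clusters. At least 2 members with a q of at most 0.05 were found in 7 and 21 clusters.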

How the data were processed

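The files held 1 peak list for each treatment, deposited in 2 forms with the same peaks and starts 1 bp apart. The submitters' processing notes name fastp 0.20.1, Bowtie2 2.4.2, MACS2 2.2.7.1 and GRCh38. Read totals were not used here. The values deposited by the authors are a score, a fold, and the −log10 of the p-value and of the q-value, per peak. The fold is the ratio of summit to background with 1 added to both. IP fragments and background were recovered from fold and p, matching the deposited −log10 p within 0.001 for 100% of peaks in both lists. The lowest background, which scales with IP depth, was 0.274 fragments (H2O2) and 0.102 (H2O2_BHBNa).

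Members and gene lists were chosen with earlier results of these data known. Genes came from RefSeq (GRCh38.p14), whose promoter windows were used for all chromosomes of 1 to 22 but chromosome 8. Named were, in each list, the 6 clusters with the most summits, the 4 others with the highest fold, up to 12 of at least 3 summits at a gene, up to 12 near a cluster of the other list, up to 6 per gene list, and the 8 genes with the most clusters. Some of these are not reported here.

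In all, 2 shift schemes were tried. The first, with 40 sets of evenly stepped distances, gave a ratio of clustered to shifted peaks of 1.37 in both lists. It was replaced after that result was seen, because on simulated unclustered positions it gave fewer clustered positions than were there. The cause of that was not tested. The scheme used here sets each distance by the rank of the summit, with no random draw, and its number of sets was raised from 40 to 200, also after results were seen. Its ratio was 1.14. Chaining and recovery were checked on simulated positions and pileups. Software was Python 3.11.15, scipy 1.17.1, numpy 2.4.6, pandas 2.3.3 and, for figures, matplotlib 3.10.9.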

Additional observations from a re-analysis of the deposited data

Results flagged for a closer look

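Chromosome X and the unplaced contigs and patches were outside the comparisons, and clusters were found there under the same 10 kb rule. Chromosome X held 8 clusters of the H2O2 list (16 of 353 peaks, 4.53%) and 28 of the H2O2_BHBNa list (57 of 704 peaks, 8.1%). Unplaced contigs and patches held 6 clusters of the H2O2_BHBNa list, made of 15 of 45 peaks (33.3%), and 0 of the H2O2 list on 18 peaks. No control sample gives a level for these counts, and no cause was tested.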

How the results depend on the processing

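Over 26 alternative values the ratio of clustered to shifted peaks stayed above 1, from 1.07 to 6.51, but for shifts of 20 to 100 kb the H2O2 interval (0.975 to 1.18) held 1. Intervals of these ratios cover counting error over single peaks only and leave out the spread of the shifted sets. The H2O2_BHBNa count of clustered peaks passed its highest shifted count in 5 of 13 alternatives (chaining at 20 kb, shifts of 500 kb to 5 Mb, merged summits, the earlier scheme and 40 sets) and not in the other 8. For example, it was 554 beside 403 to 568 at 5 kb, 1020 beside 788 to 1025 without high background, and 1053 beside 868 to 1058 with shifts of 20 to 100 kb. The H2O2 count passed it in 4 of 13 (a q of at most 0.05, shifts of 500 kb to 5 Mb, the earlier scheme and 40 sets). In the H2O2 list the settings of at least 3 fragments and of equal list length removed no peak. Those 2 therefore repeat the main values among the 13 and the 26. Clusters of at least 3 summits in the H2O2_BHBNa list passed it in 8 of 13. Alternatives added after seeing the data were the shifts of 20 to 100 kb, the merging of close shifted summits, the removal of gene-free stretches, the earlier shift scheme and number of sets, and every setting of clusters of at least 3 summits and of the q shares. The cause of the changes below was not tested unless fewer peaks or another distance gives it by construction. With the evenly stepped shifts tried first the ratios were 1.37 in the H2O2 and in the H2O2_BHBNa list, and the observed counts of 402 and 1053 stood above the highest shifted counts, 324 and 837. With shifts of 20 to 100 kb they were 1.07 and 1.08, and with 500 kb to 5 Mb 1.27 and 1.19. Peaks with a q of at most 0.05 gave ratios of 6.51 and 1.97 on 7 and 19 clusters, with 1 and 3 of at least 3 summits. Peaks with at least 3 fragments left 130 H2O2_BHBNa clusters, 12 of at least 3 summits and a ratio of 1.22. As many peaks as the shorter list holds left 144, with 13 of at least 3. The share of peaks at a q of at most 0.05 in clustered minus isolated H2O2_BHBNa peaks was 4.43 (-1.11 to 10.3) and 6.5 (1.31 to 12.1) percentage points in these 2 settings, beside 1.18, but 0.087 without high background and -0.244 without gene-free stretches. For H2O2 peaks chained at 5 kb this difference was 3.88 (0.375 to 8.69), beside 2.28. Chaining at 5 kb gave 109 and 270 clusters, 11 of the latter of at least 3 summits, and chaining at 20 kb 361 and 896, with 29 and 94. H2O2 clusters near a cluster of H2O2_BHBNa numbered 3, but 1 at 5 kb, at a q of at most 0.05, at 3 fragments or more and at equal list length, and 20 at 20 kb. They numbered 2 without the gene-free stretches and 4 by the distance between peak edges.

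No paired analysis was possible because each treatment had 1 IP library and 1 control library. There was no replicate to leave out. Depth limits these lists: many peaks rest on 2 or 3 fragments, and a neighbour below the calling limit is not seen. Ranges of shifted sets are descriptions and carry no p-value.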
